A study of Arabidopsis thaliana with 9 samples.

Results

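ASN1, SEN1, DIN10, DIN2 and BCAT2 are genes that Arabidopsis thaliana switches on when its cells run short of sugar, above all in prolonged darkness. They were followed here on 5 probe sets of the ATH1 array, chosen by identifier and by what their genes are known for. The choice was made with earlier results of these data known. All 5 were found among the 22746 probe sets tested. The pairing of each probe set with its gene comes from the rule that chose them, because the probe annotation used here lists 14016 probe sets and none of these 5. The identifiers are 252415_at for ASN1 (AT3G47340, also DIN6), 253161_at for SEN1 (AT4G35770, also DIN1), 246114_at for DIN10 (AT5G20250), 251428_at for DIN2 (AT3G60140, also BGLU30) and 264524_at for BCAT2 (AT1G10070). Their expression was compared in whole Columbia-0 seedlings on 9 arrays, 3 for each of 3 groups. The first group spent 5 days beside an open dish of 100 uM sodium nitroprusside (SNP), which gives off nitric oxide. The second had 1 mM cPTIO, a nitric oxide scavenger, added to its own dish for 5 days. The third was untreated. All were wild-type plants, and seedlings of all 3 groups were 3 days old at the start and 8 days old at harvest. Treated dishes stood inside sealed outer dishes, and the labels do not say whether untreated ones did, nor whether the medium held sugar, how much light reached the dishes or at what hour the seedlings were harvested. SNP and cPTIO thus differ in dose and route as well as in agent, and 3 receiver dishes shared 1 sealed dish.

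A plant cell that cannot photosynthesise turns to its proteins and amino acids for carbon. The kinase SnRK1 senses the energy deficit and, partly through bZIP transcription factors of the S1 and C groups, raises the transcripts of a starvation programme that sucrose or glucose represses. Asparagine made by ASN1 stores the nitrogen set free when amino acids are burned, and branched-chain amino acids, whose metabolism includes the transaminase reaction of the BCAT enzymes, are among those burned. Several such transcripts also follow the day and night cycle.

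The seedlings were checked against markers of green tissue and root. Of 6 markers fixed for each, the annotation names 1 apiece. Rubisco activase (RCA), a leaf protein, averaged 12.90 in SNP, 13.16 in cPTIO and 13.08 in untreated seedlings on the log2 scale, where 1 unit is a doubling. The root hair expansin EXPA7 averaged 5.12 ± 0.40 in SNP, 5.61 ± 0.10 in cPTIO and 6.10 ± 0.07 in untreated seedlings (SD, n = 3 each), and it was lower in SNP than in untreated seedlings (log2 difference -0.98, limma adjusted p = 0.0192), a call lost without any 1 of the untreated arrays (0.0571 to 0.0634). In whole seedlings, fewer cells of a type and less RNA per cell cannot be told apart. Array medians lay between 4.47 and 4.60, and a value near or below them is not shown to lie above background. The BioC spike-in, which does not come from the plant, averaged 8.53 ± 0.09 on SNP arrays, 8.36 ± 0.51 on cPTIO arrays and 6.32 ± 0.18 on untreated arrays (SD, n = 3 each). The arrays of each treatment therefore differ from the untreated ones in a signal that is not plant RNA, and its part in the results below was not tested. The spike-ins BioB, BioD and cre did not lie higher on all treated arrays than on all untreated ones.

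All 5 genes had higher means in cPTIO than in untreated seedlings, but none passed the test. ASN1, SEN1, DIN10 and BCAT2 lay higher on all 3 cPTIO arrays than on any untreated array. Their group means differed by 1.05 to 2.62 on the log2 scale, while DIN2 was high on a single cPTIO array. None of the 5 had an adjusted p under 0.05, where 6.59% of all probe sets did. For SEN1, ASN1 and DIN10 the adjusted p was 0.0554, 0.0598 and 0.0625. SNP minus untreated means were 0.67 for ASN1, 0.66 for SEN1 and 0.18 for BCAT2, with overlapping arrays. DIN2 had the largest SNP minus untreated difference of the 5, 2.53 with arrays that did not overlap, and DIN10 the only negative one, -0.67. None of these passed. DIN10 was lower in SNP than in cPTIO seedlings, the only one of 15 member comparisons past the threshold.

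ASN1, the glutamine-dependent asparagine synthetase, had 4.32, 3.78 and 5.07 on the SNP arrays, 5.41, 4.97 and 7.34 on the cPTIO arrays, and 3.73, 3.61 and 3.82 on the untreated arrays (replicates 1, 2 and 3). Every cPTIO array was above every untreated one, and cPTIO replicate 2 was below SNP replicate 3. Group means were 4.39 ± 0.64 in SNP, 5.90 ± 1.26 in cPTIO and 3.72 ± 0.10 in untreated seedlings (SD, n = 3 each). The cPTIO minus untreated difference was 2.18 with an SE of 0.57 (limma adjusted p = 0.0598, 95% interval 0.88 to 3.49). The untreated mean is below the array medians, so the true size may differ. ASN1 differed by -1.51 between SNP and cPTIO (SE 0.57, limma adjusted p = 0.206) and by 0.67 between SNP and untreated seedlings (limma adjusted p = 0.586).

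SEN1, a rhodanese-domain protein long used as a marker of dark-induced leaf senescence, had 8.44, 7.45 and 8.28 on the SNP arrays, 9.63, 8.78 and 11.64 on the cPTIO arrays, and 7.95, 7.40 and 6.84 on the untreated arrays. The cPTIO arrays overlapped neither other group, and the SNP and untreated arrays overlapped each other. All of these values are well above the array medians. Means were 8.06 ± 0.53 in SNP, 10.01 ± 1.47 in cPTIO and 7.40 ± 0.55 in untreated seedlings (SD, n = 3 each). The cPTIO minus untreated difference of 2.62 (SE 0.67, limma adjusted p = 0.0554, 95% interval 1.09 to 4.14) was exceeded by 2 of all probe sets tested. That rank is by size alone: DIN2, high on a single cPTIO array, was exceeded by 12. Without cPTIO replicate 3 the SEN1 difference was 1.80. SNP was lower than cPTIO by 1.96 in the mean (log2 difference -1.96, SE 0.67, limma adjusted p = 0.166), and SNP minus untreated was 0.66 (limma adjusted p = 0.658).

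DIN10, of the raffinose synthase and alkaline galactosidase family, had 8.82, 8.37 and 9.31 on the SNP arrays, 10.66, 10.18 and 10.82 on the cPTIO arrays, and 9.23, 9.39 and 9.90 on the untreated arrays. The cPTIO arrays were again above all others, with an SD of 0.34 against 0.47 in SNP and 0.35 in untreated seedlings. DIN10 was thus the member with the smallest spread in cPTIO. It averaged 8.84 in SNP and 10.56 in cPTIO seedlings, a log2 difference of -1.72 (SE 0.28, limma adjusted p = 0.0178, 95% interval -2.36 to -1.08), so it was 3.29-fold lower in SNP. Of all probe sets, 3.26% were called in this comparison and 1.59% were called lower in SNP. The call was lost without SNP replicate 1, SNP replicate 2 or cPTIO replicate 1, with adjusted p of 0.0703, 0.0730 and 0.0604, and when only SNP and cPTIO arrays were fitted (0.0577). With SNP and cPTIO arrays paired by number it held (replicate block, limma adjusted p = 0.0247). Untreated seedlings, with a mean of 9.51, lay between. cPTIO exceeded them by 1.05 (SE 0.28, limma adjusted p = 0.0625). SNP minus untreated was -0.67 (SE 0.28, limma adjusted p = 0.214), and SNP replicate 3 was above untreated replicate 1. DIN10 was the only member whose SNP mean lay below its untreated mean.

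DIN2, a beta-glucosidase, had 5.89, 5.72 and 7.45 on the SNP arrays, 3.30, 4.73 and 10.21 on the cPTIO arrays, and 4.28, 3.49 and 3.71 on the untreated arrays. All SNP arrays were above all untreated ones. The cPTIO arrays held both the lowest and the highest of the 9 values, a range of 6.90 log2 units with an SD of 3.64. The cPTIO mean of 6.08 is therefore close to none of the 3 values. SNP minus untreated was 2.53 with an SE of 1.51 (limma adjusted p = 0.403), an SE that the pooled fit takes largely from the cPTIO arrays. With the poly-A spike-in level as a covariate it was 0.74 (limma adjusted p = 0.909). That level was higher on all SNP than on all untreated arrays, so the fit cannot tell its part from that of treatment. In a fit of SNP and untreated arrays alone the SNP minus untreated difference had an SE of 0.47 and a limma adjusted p of 0.0225. Without cPTIO replicate 3 the adjusted p was 0.0217. The SNP minus cPTIO difference was 0.27 (95% interval -3.19 to 3.74, limma adjusted p = 0.952), and it changed sign when 1 array was left out.

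BCAT2, the plastid branched-chain amino acid transaminase, had 3.41, 3.47 and 3.60 on the SNP arrays, 4.12, 3.50 and 5.52 on the cPTIO arrays, and 3.28, 3.24 and 3.41 on the untreated arrays. Apart from cPTIO replicate 3, these values are below the array medians, so a change among them would be hard to see. The cPTIO arrays were all above the untreated ones. cPTIO replicate 2 exceeded untreated replicate 3 by less than 0.1. The cPTIO minus untreated difference was 1.07 (SE 0.42, limma adjusted p = 0.171) and was 0.50 without cPTIO replicate 3 (limma adjusted p = 0.115). SNP minus untreated was 0.18 (limma adjusted p = 0.879) and SNP minus cPTIO was -0.89 (limma adjusted p = 0.313).

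**Figure D1:**
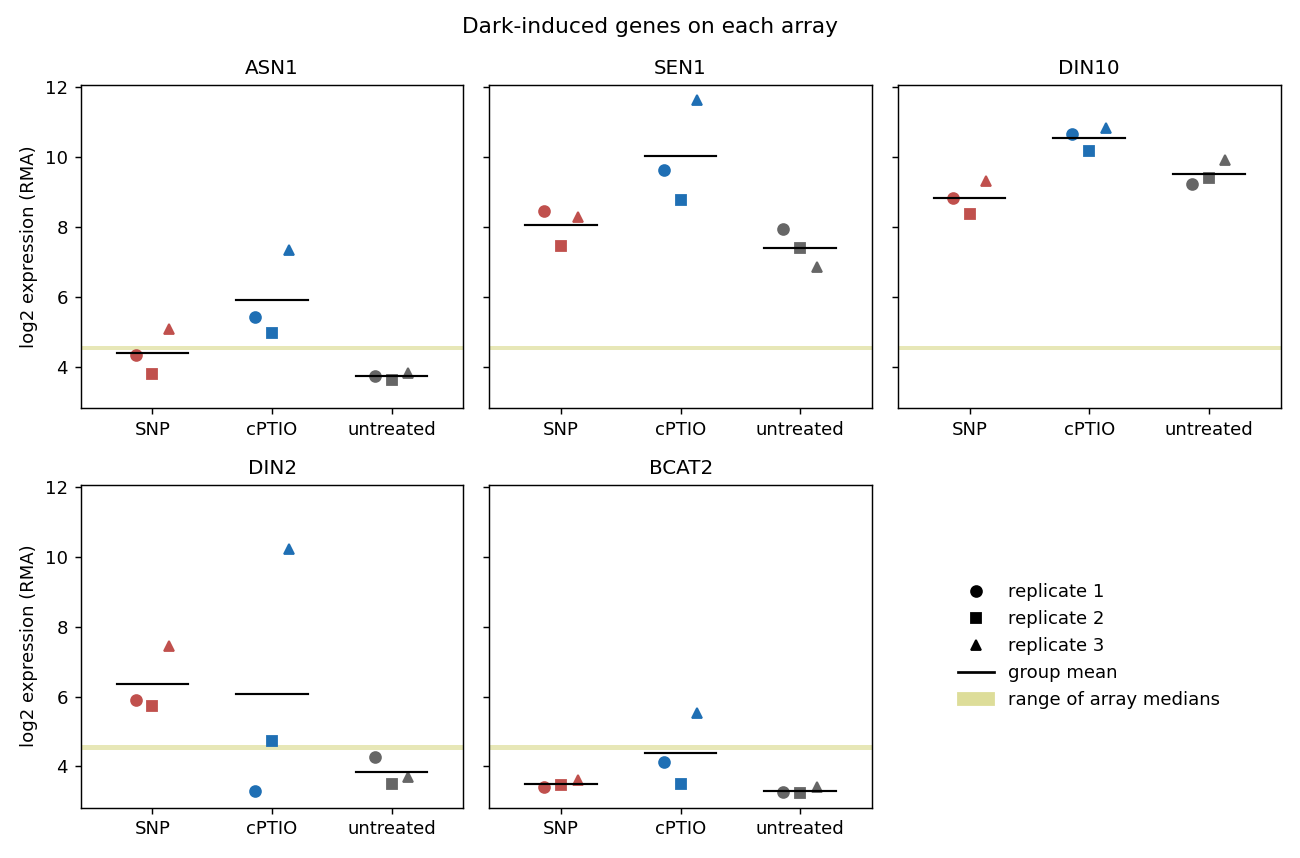
Log2 expression (RMA) of each gene on every array, by group, with replicates 1, 2 and 3 as circles, squares and triangles, the group mean as a line and the range of the array medians, 4.47 to 4.60, as a band. In all 5 genes the highest value is that of cPTIO replicate 3, and DIN2 on the cPTIO arrays spans 3.30 to 10.21.

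By order of group means, ASN1, SEN1 and BCAT2 ran cPTIO, SNP, untreated. DIN10 ran cPTIO, untreated, SNP, and DIN2 ran SNP, cPTIO, untreated. Only the 2 ends of the DIN10 order differed beyond the threshold. In cPTIO against untreated seedlings, 4 of the 5 genes did not overlap, all of them higher in cPTIO, as did 13% of all probe sets in that direction. In SNP against untreated seedlings, DIN2 alone did not overlap, higher in SNP, against 14% of all probe sets. None of the 5 was called there, where 6.19% of probe sets were. In SNP against cPTIO seedlings, SEN1 and DIN10 did not overlap, lower in SNP, against 11.1% of all probe sets. The median of the 5 differences was 2.18 for cPTIO minus untreated, against 0.02 over all probe sets. It was 0.66 for SNP minus untreated, against 0.00, and -1.51 for SNP minus cPTIO, against -0.02. The comparisons against untreated seedlings share the same 3 untreated arrays.

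**Figure D2:**
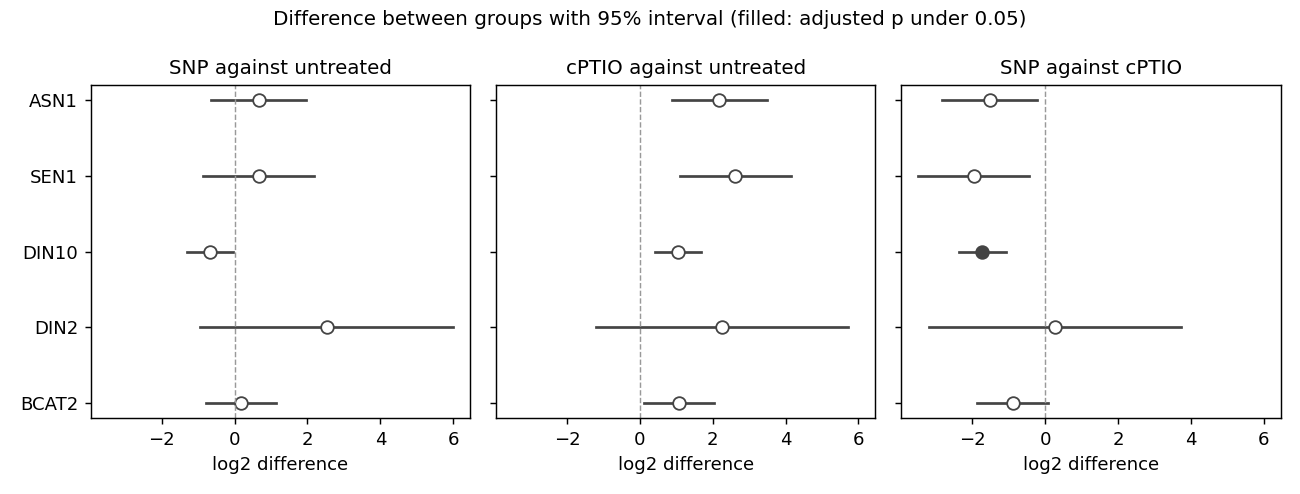
Log2 difference between groups for each gene with its 95% interval from limma, in 3 panels, filled where the adjusted p is under 0.05. DIN10 in SNP against cPTIO, at -1.72, is the only filled point, and the DIN2 intervals are the widest in each panel.

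cPTIO replicate 3 was the highest of the 9 arrays in all 5 genes, and it was the highest in 17.8% of all probe sets. It exceeded the mean of the other 2 cPTIO arrays by 2.15 in ASN1, 2.44 in SEN1, 0.40 in DIN10, 6.19 in DIN2 and 1.71 in BCAT2. The excess in DIN2 was above that of 100% of probe sets after rounding, and the excess in DIN10 above that of 85.6%. SNP replicate 3 likewise exceeded the mean of the other 2 SNP arrays, by 1.01 in ASN1, 0.72 in DIN10 and 1.65 in DIN2, and by 0.34 in SEN1 and 0.16 in BCAT2, although SEN1 was highest on SNP replicate 1. Untreated replicate 3 exceeded the mean of the other 2 untreated arrays by 0.59 in DIN10 and was lower by 0.84 in SEN1 (difference -0.84). The poly-A spike-in level was 4.76 on SNP replicate 3 and 4.60 on cPTIO replicate 3, against 3.71 to 3.90 on the untreated arrays. SNP replicate 1 (4), SNP replicate 2 (4.34) and cPTIO replicate 1 (4.46) were also above that range. cPTIO replicate 2 (3.85) was within it. With this level as a covariate the cPTIO minus untreated difference was 1.32 in ASN1 (limma adjusted p = 0.355), 1.88 in SEN1 (0.338), 0.66 in DIN10 (0.369), 0.67 in DIN2 (0.911) and 0.45 in BCAT2 (0.712), each smaller than without it. The level largely follows treatment, so against untreated seedlings this fit cannot fully tell its part from that of treatment. DIN10 in SNP against cPTIO kept its call with the covariate (-1.77, limma adjusted p = 0.0111). Without cPTIO replicate 3 the cPTIO minus untreated difference was smaller in all 5 genes, but the spread fell too: it was 1.47 in ASN1 (limma adjusted p = 0.0322), 1.80 in SEN1 (0.0352), 0.91 in DIN10 (0.0993), 0.19 in DIN2 (0.878) and 0.50 in BCAT2 (0.115). The differences of ASN1 and SEN1 thus rest on that array in part but not alone, whereas that of DIN2 largely does. Leaving out cPTIO replicate 2 gave limma adjusted p of 0.0356 in ASN1, 0.0257 in SEN1, 0.0476 in DIN10 and 0.0454 in BCAT2. Leaving out cPTIO replicate 1 gave 0.105 in ASN1, 0.112 in SEN1, 0.160 in DIN10 and 0.235 in BCAT2, and leaving out 1 untreated array gave 0.0712 to 0.351 over these 4 genes.

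**Figure D3:**
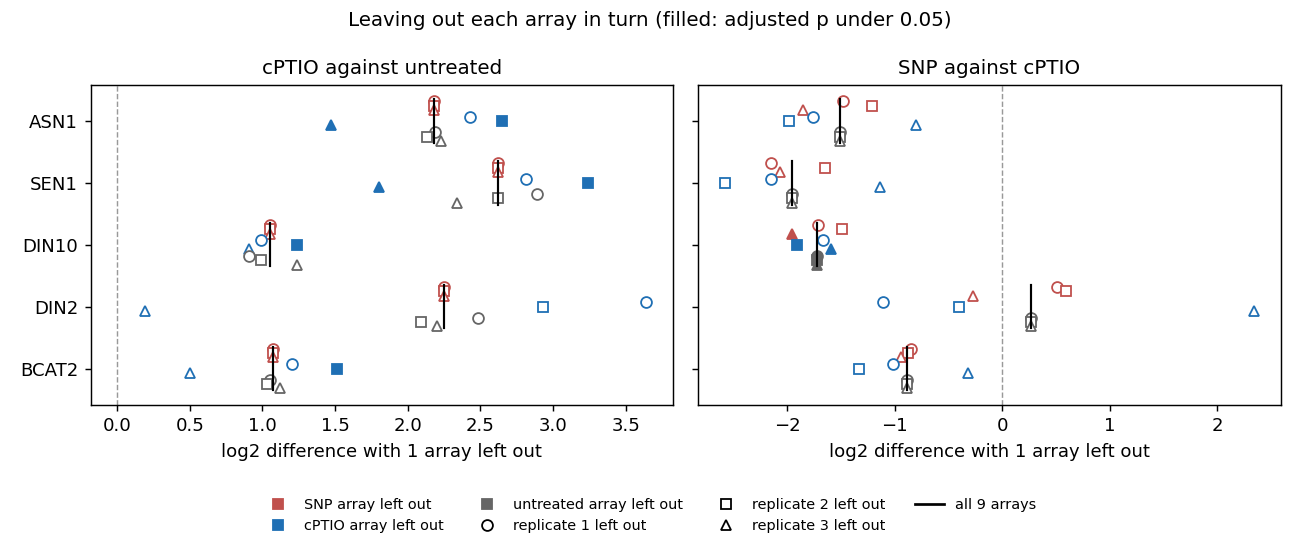
Log2 difference of each gene with 1 array left out at a time, for cPTIO against untreated (left) and SNP against cPTIO (right). Colour gives the group and shape the replicate left out, the bar is the value with all 9 arrays, and filled points have an adjusted p under 0.05. ASN1 and SEN1 stay at or above 1.47 in the left panel, and DIN2 in the right panel runs from -1.11 to 2.34.

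Other genes of carbon starvation were read from lists fixed by locus. The annotation used here names 25 of the 76 genes in those lists, among them none of the other dark-induced genes DIN3, DIN4, DIN9 and DIN11. In cPTIO against untreated seedlings, 1 of the 25 was called higher (2.32% of all probe sets were) and none lower. That gene was KINB1 (AT5G21170), a regulatory beta subunit of SnRK1 and the single measured member of the 12 SnRK1 target genes. It had 6.14, 5.85 and 6.93 on the SNP arrays, 7.71, 6.88 and 8.53 on the cPTIO arrays, and 5.21, 5.83 and 6.21 on the untreated arrays. The cPTIO arrays were above all untreated ones, and KINB1 rose in cPTIO by 1.96 (SE 0.45, limma adjusted p = 0.0414). The call held in 8 of 18 alternative fits and was lost, among others, without SNP replicate 1 or 2, cPTIO replicate 1 or 3 or any 1 untreated array (0.0523 to 0.131), and it was 1.15 with the poly-A level as a covariate (0.232). SNP minus cPTIO was -1.40 (limma adjusted p = 0.146).

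APL3, a large subunit of ADP-glucose pyrophosphorylase that makes the precursor of starch, is raised by sugar where the starvation genes are lowered. It was the single measured gene of 8 sugar-induced genes. It had 6.52, 6.65 and 5.08 on the SNP arrays, 3.57, 3.88 and 3.40 on the cPTIO arrays, and 4.41, 5.08 and 4.46 on the untreated arrays. Its group means were 6.08 in SNP, 3.62 in cPTIO and 4.65 in untreated seedlings. They run in the reverse order to those of DIN10, but not to those of ASN1, SEN1, BCAT2 or DIN2. APL3 was higher in SNP than in cPTIO by 2.47 (SE 0.40, limma adjusted p = 0.0174), though the cPTIO values are below the array medians. The call was lost without SNP replicate 1, SNP replicate 2 or cPTIO replicate 1 (0.0706, 0.0796 and 0.0575) and when only SNP and cPTIO arrays were fitted (0.0668). Against untreated seedlings neither change passed the test, with 1.43 in SNP (limma adjusted p = 0.0735) and -1.03 in cPTIO (limma adjusted p = 0.157).

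The list for the breakdown of leucine, isoleucine and valine gave 8 measured genes of 13, with none called in any comparison. They were BCKDH-E1A2, IVD, MCCA, MCCB, ETFQO, ETFALPHA, ETFBETA and D2HGDH, so the list also holds electron carriers and a hydroxyglutarate dehydrogenase. Their median difference was 0.15 in SNP against untreated, 0.20 in cPTIO against untreated and -0.18 in SNP against cPTIO seedlings. Of the 8 cPTIO minus untreated differences, 5 were positive. ETFALPHA (-0.04), ETFBETA (-0.08) and D2HGDH were negative, D2HGDH at -0.76 (limma adjusted p = 0.0865) with arrays that did not overlap. The share of all probe sets that did not overlap in that direction was not counted. The 3 genes with the largest rises, all enzymes of leucine breakdown, were picked after their values were seen and are given in full. Isovaleryl-CoA dehydrogenase (IVD) had 6.07, 5.93 and 6.09 on the SNP arrays, 6.11, 5.98 and 8.97 on the cPTIO arrays, and 6.10, 5.93 and 5.98 on the untreated arrays. IVD was at 1 level on 8 arrays and far above it on cPTIO replicate 3. MCCA, a subunit of methylcrotonyl-CoA carboxylase, had 6.80, 6.67 and 6.96 on the SNP arrays, 6.84, 6.61 and 8.76 on the cPTIO arrays, and 6.28, 5.79 and 6.37 on the untreated arrays. All SNP and all cPTIO arrays of MCCA were above all untreated ones, by 0.66 and 1.26 in the mean (limma adjusted p = 0.524 and 0.169). MCCB, the other subunit, had 7.91 on cPTIO replicate 3, against 6.21 to 7.04 on the other 8 arrays. The SNP arrays of MCCB were also above its untreated ones (difference 0.46, limma adjusted p = 0.432). Of all probe sets, 14% lay so in SNP and 13% in cPTIO. In all, 5 of the 8 genes were highest on cPTIO replicate 3, as were 17.8% of all probe sets.

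Among the paralogs of the members, BGLU28, a beta-glucosidase known to respond to sulfur shortage, had 5.06, 5.52 and 6.44 on the SNP arrays, 3.31, 3.90 and 8.32 on the cPTIO arrays, and 3.38, 3.15 and 2.76 on the untreated arrays. Like DIN2 it was higher on all SNP than on all untreated arrays and highest on cPTIO replicate 3, with a SNP minus untreated difference of 2.58 (SE 1.14, limma adjusted p = 0.245). BGLU29 stayed between 2.36 and 2.74 on all arrays, below every array median. The transaminase BCAT4, which extends methionine for glucosinolates, had a mean of 8.17 in SNP, 7.79 in cPTIO and 8.06 in untreated seedlings, and 6.14 on cPTIO replicate 3. BCAT5 averaged 7.12 in SNP, 6.83 in cPTIO and 7.36 in untreated seedlings, with a cPTIO minus untreated difference of -0.52 (limma adjusted p = 0.0753). Paralogs of ASN1 and DIN10 are not named by the annotation used here.

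All 9 ATG8 genes, which encode the small protein that coats autophagosomes, were measured, and 2 further autophagy genes were not. None was called against untreated seedlings in either treatment. ATG8G was called in SNP against cPTIO, where it averaged 5.44 ± 0.15 in SNP and 4.81 ± 0.21 in cPTIO seedlings (SD, n = 3 each), a difference of 0.63 (limma adjusted p = 0.0418), which held in 5 of 18 alternative fits; with SNP and cPTIO arrays paired by number (replicate block) the adjusted p was 0.117. Leaving out 1 array other than cPTIO replicate 2 gave 0.0510 to 0.119. With APL3 it made 2 of 25 list genes called higher in SNP, against 1.68% of all probe sets, and none was called lower. Of the 9, 6 were highest on cPTIO replicate 3, against 17.8% of all probe sets. The largest excess of that array was in ATG8H, with 7.33 there and 5.42 and 5.29 on the other cPTIO arrays.

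Of 10 leaf senescence genes, 3 were measured, and WRKY53, a transcription factor that promotes senescence, fell by 1.21 in SNP against untreated seedlings (limma adjusted p = 0.0356), a call lost without any 1 of the SNP or untreated arrays (0.0661 to 0.133). It had 3.54, 3.53 and 3.66 on the SNP arrays and 4.58, 4.93 and 4.85 on the untreated arrays, with the SNP values below the array medians. It was the only one of the 25 called in that comparison, where 3.62% of all probe sets were called lower. SAG29, a sugar transporter gene of late senescence, had 8.28, 8.14 and 4.16 on the SNP arrays, 7.22, 7.67 and 3.85 on the cPTIO arrays, and 7.25, 7.67 and 7.36 on the untreated arrays. The evening clock gene GIGANTEA (GI), the single measured one of 9 clock genes, had 5.23, 5.32 and 3.14 on the SNP arrays, 5.61, 5.62 and 3.47 on the cPTIO arrays, and 4.98, 4.52 and 4.98 on the untreated arrays. SAG29 and GI were both low on SNP replicate 3 and cPTIO replicate 3, the arrays on which ASN1, DIN10, DIN2 and BCAT2 were highest within their groups, and not on untreated replicate 3. Their part in the members' values was not tested. Of the transcription factors of the S1 and C bZIP groups and the SnRK1 catalytic subunits, 2 of 11 were measured and neither was called. bZIP44 averaged 5.96 in SNP, 7.05 in cPTIO and 7.63 in untreated seedlings (SNP minus untreated -1.68, limma adjusted p = 0.0730). On the cPTIO arrays bZIP44 had 7.72, 7.61 and 5.81, so it was low on cPTIO replicate 3. bZIP53 averaged 8.99 in SNP, 8.75 in cPTIO and 9.13 in untreated seedlings.

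**Figure D4:**
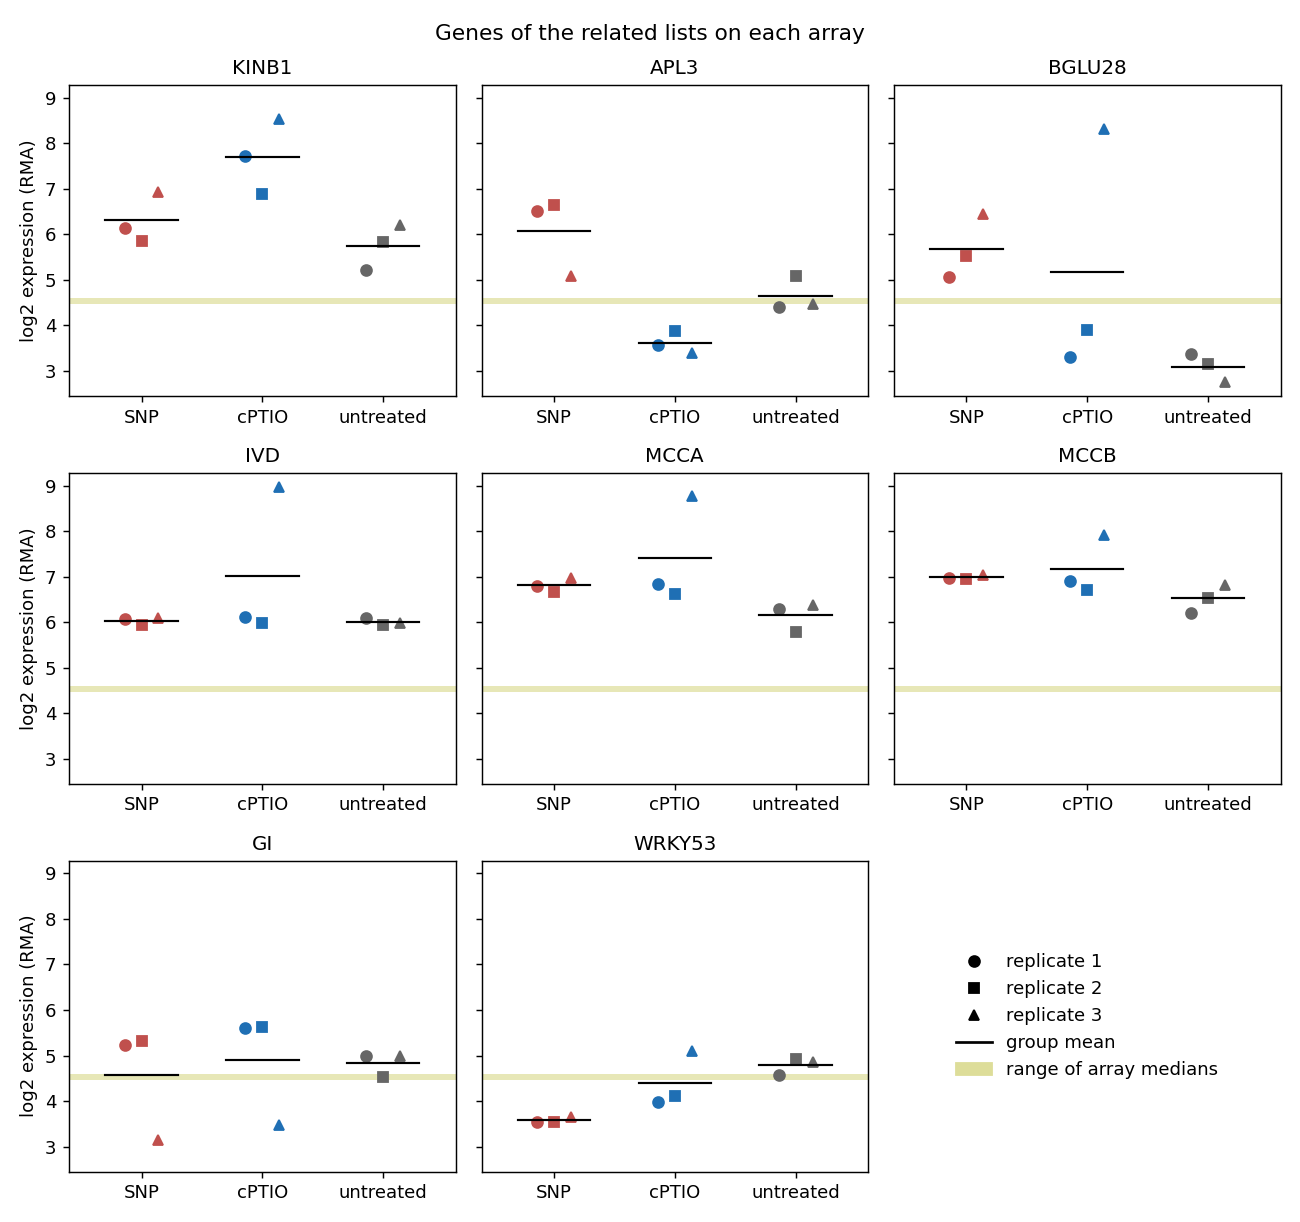
Log2 expression (RMA) on every array of 8 genes from the related lists, drawn as in the plot of the dark-induced genes. By group mean KINB1 is highest and APL3 lowest in cPTIO. IVD and MCCA are highest on cPTIO replicate 3, and GI is low on SNP replicate 3 and cPTIO replicate 3.

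The genes with the most similar profiles were sought among 13513 probe sets with 1 named gene. Likeness was the root mean square distance, in log2 units, between the 9 values of both genes after each was centred on its own mean. The nearest to ASN1 were AT1G21680 at 0.30, KINB1 (AKINBETA1 in the annotation) at 0.37 and AT1G63530 at 0.46, where ASN1 itself varied by 1.13 about its mean. AT1G63530 (0.58) and AT1G21680 (0.62) were also nearest to SEN1, followed by the glutamine amidotransferase gene GAT1_2.1 (0.64). For GAT1_2.1 the means were 4.35 in SNP, 6.23 in cPTIO and 4.59 in untreated seedlings. DIN10 was nearest to AT1G10140 (0.29), AT2G37750 (0.30) and AT2G30600 (0.31), each called lower in SNP than in cPTIO, by -1.31 (limma adjusted p = 0.0307), -1.76 (0.0265) and -1.33 (0.0150). Since closeness to DIN10 chose them, these calls do not add to its own.

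DIN2 was nearest to BGLU28 at 0.52, and its next neighbours, AT2G15960 and AT4G39670, were at 1.14 and 1.15. BCAT2 was nearest to the glucosyltransferase gene UGT73B1 (0.21), AT4G01870 (0.22) and the C2-domain protein gene SRC2 (0.22). Among the members themselves, ASN1 and SEN1 were the closest pair, at 0.43, and DIN10 and DIN2 the most distant, at 2.14. DIN2 lay at 1.49 or more from each of the other members, the farthest from the rest by this measure. The distance is not scaled for size of change. DIN2 varied by 2.11 about its own mean, against 1.36 for SEN1, 1.13 for ASN1, 0.78 for DIN10 and 0.68 for BCAT2.

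**Figure D5:**
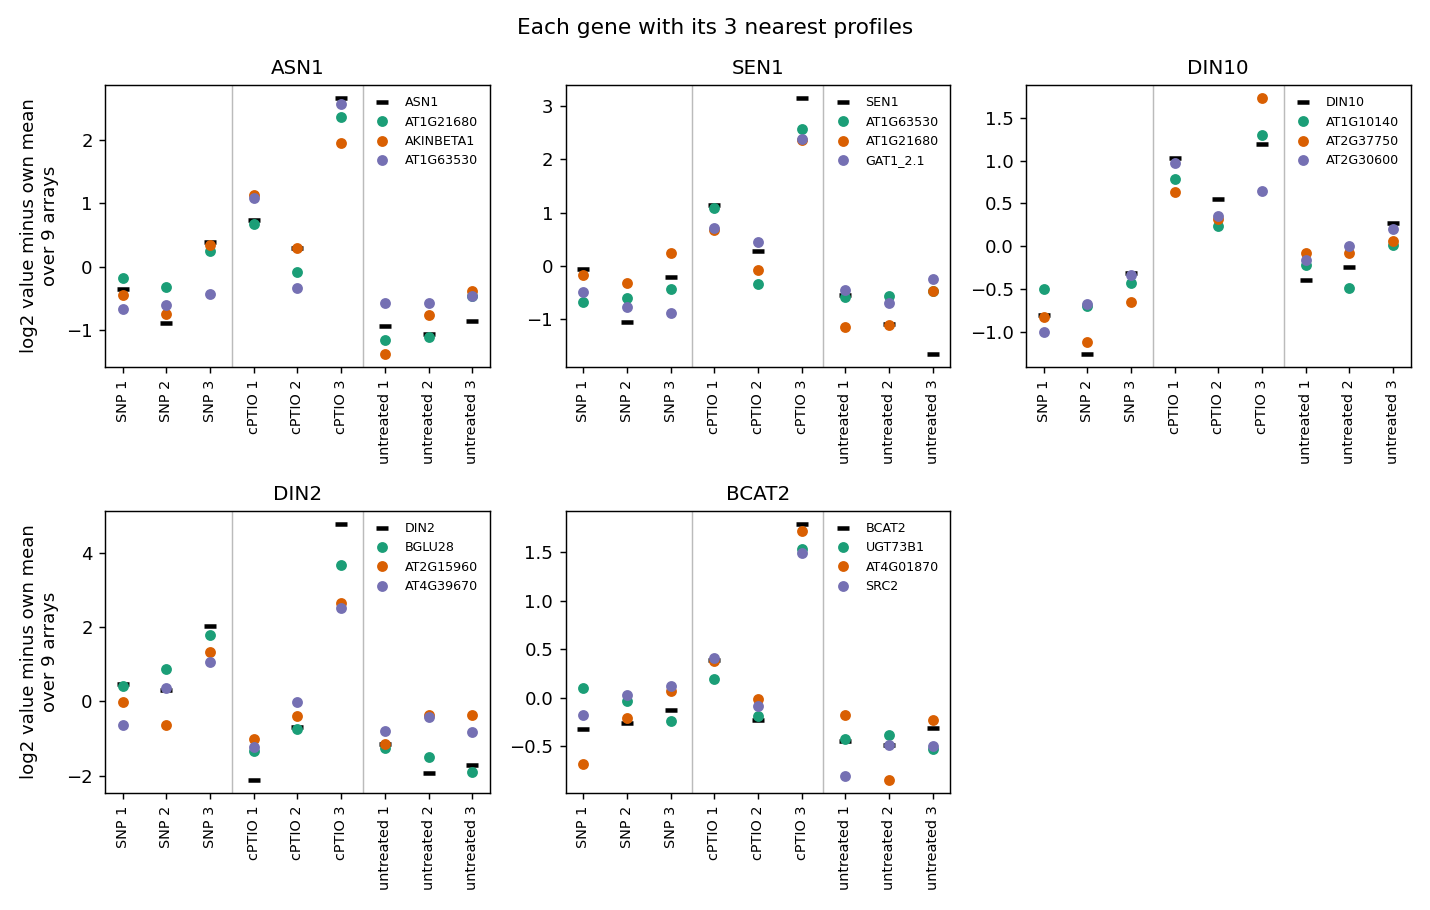
Log2 value minus the gene's own mean over the 9 arrays, for each dark-induced gene (black bars) and its 3 nearest genes (coloured points). BGLU28 follows DIN2 to the high value of cPTIO replicate 3, and the DIN10 neighbours lie low on the SNP arrays.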

How the data were processed

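The deposited values are log2 expression, with 1 value for each probe set on each array. Per the submitters' processing notes they were made with RMA (background correction, quantile normalisation between arrays, summary per probe set) and limma; no version of either is given. Quantile normalisation removes a shift shared by most transcripts. Of 22810 probe sets, 64 AFFX controls were set aside and 22746 tested with no filter on dim ones, in limma 3.58.1 (R 4.3.3; lmFit, contrasts, eBayes) on the 9 arrays together, with a term for group and no other. Tests were two-sided, with Benjamini-Hochberg adjustment over all probe sets within a comparison and a threshold of 0.05. The fit was tested on simulated data. Figures used matplotlib 3.10.9 under Python 3.11.15. Alternatives were fits of both groups alone, array weights, an intensity trend, median centring, removal of dim probe sets, a replicate block, a poly-A covariate and the removal of arrays.

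GEO's platform annotation gave 1 gene for 13513 probe sets, several for 503 and none for 8730. RefSeq (TAIR10.1) gave a locus for 13436 of the 13513. All members were named with their values. From each list, genes called in at least 1 comparison with groups that do not overlap were to be named (at most 4 in each direction), paralogs always, and the 3 nearest profiles of each member. IVD, MCCA, MCCB and the other measured genes of their list, ATG8H, SAG29, GI, bZIP44 and bZIP53 were added after their values were seen. The members and lists were chosen with earlier results of these data known.

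The labels number replicates 1 to 3 in each group and call them biological. They do not say whether the 3 receiver dishes of 1 sealed dish are the 3 samples, so p-values may measure partly technical spread. Deviations of same-numbered arrays from their group means correlated at 0.257, 0.305 and 0.417 between SNP and cPTIO, all above 0.1, which was taken to mean that the numbers pair these arrays, although no label states it. The tests reported first still leave the pairing out, and the paired fit is an alternative, given beside a result where it changes a call. The correlations were 0.127, -0.0174 and 0.0849 between SNP and untreated and 0.0621, 0.0564 and -0.00711 between cPTIO and untreated, which were taken as unpaired. With a replicate block on SNP and cPTIO arrays only, 282 probe sets were called in place of 742. No 2 arrays held identical values. The number of arrays limits the precision. No promoter or protein sequences are shown.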

Additional observations from a re-analysis of the deposited data

Results flagged for a closer look

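Control probe sets that lay higher on all 6 treated arrays than on all 3 untreated arrays were looked for outside the tested probe sets. The BioC spike-in met this with a treated minus untreated difference of 2.12 on the log2 scale, its lowest treated value being 7.77 and its highest untreated value 6.50. Plant ubiquitin met it with 0.34, at 11.28 and 11.03. The other controls did not meet it, among them BioB (0.35), BioD (0.21) and cre (0.13). Neither was tested as a cause of the differences in the dark-induced genes.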

How the results depend on the processing

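Of 267 member values under the alternatives, 232 kept their direction and their side of the threshold, 25 gained a call, 4 lost one and 6 changed sign. The cause was not tested. The DIN10 difference between SNP and cPTIO was -1.72 (limma adjusted p = 0.0577) with only both groups in the fit. It ran from -1.96 to -1.49 as 1 array was left out, with adjusted p up to 0.0730. For cPTIO against untreated, ASN1 passed the threshold with array weights (1.64), an intensity trend (2.18), without dim probe sets (2.18), with a replicate block on all 9 arrays (2.18) and without both treated arrays numbered 3 (1.47). SEN1 passed with an intensity trend (2.62), median centring (2.68), without dim probe sets (2.62) and without both treated arrays numbered 3 (1.80). DIN10 passed with an intensity trend (1.05), median centring (1.11), without dim probe sets (1.05) and with a replicate block on all 9 arrays (1.05). Over all alternatives the adjusted p ran from 0.00973 to 0.355 for ASN1, from 0.0257 to 0.338 for SEN1 and from 0.0176 to 0.369 for DIN10, the highest with the poly-A spike-in level as a covariate. Leaving out 1 array gave 1.47 to 2.65 for ASN1, 1.80 to 3.24 for SEN1, 0.91 to 1.24 for DIN10, 0.50 to 1.51 for BCAT2 and 0.19 to 3.64 for DIN2, and the poly-A covariate gave 1.32, 1.88, 0.66, 0.45 and 0.67 in the same order of genes. A replicate block on cPTIO and untreated arrays only left ASN1 and DIN10 without a call (limma adjusted p = 0.131 and 0.0912). DIN2 in SNP against untreated passed with only those groups in the fit (2.53), also with a replicate block (2.53), and without both treated arrays numbered 3 (1.98), and ran from 1.98 to 2.85 with 1 array left out, but was 0.74 (limma adjusted p = 0.909) with the poly-A covariate. SNP minus cPTIO passed for ASN1 without both treated arrays numbered 3 (-1.13), and SNP minus untreated for DIN10 with a replicate block on all 9 arrays (-0.67). DIN2 in SNP against cPTIO ran from -1.11 to 2.34, with -0.27, -1.11 and -0.40 without SNP replicate 3, cPTIO replicate 1 and cPTIO replicate 2. With the poly-A level as a covariate, SNP minus untreated turned to -0.30 for ASN1, -0.17 for SEN1 and -0.52 for BCAT2. Since that level largely follows treatment, fits with it cannot fully separate level from treatment in comparisons with untreated seedlings. BCAT2 has no value without dim probe sets.

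Totals of called probe sets moved more. SNP against untreated had 1409, and 2440 with only both groups, 3560 with array weights, 260 with the poly-A covariate, 2256 without both treated arrays numbered 3 and 500 to 2542 with 1 array left out. cPTIO against untreated had 1498, and 280, 2260, 26, 2330 and 122 to 2114 in the same order, with 0 in limma with a replicate block on these groups alone. SNP against cPTIO had 742, and 267 with only both groups, 1652 with array weights, 282 with a replicate block on these groups, 1392 without both treated arrays numbered 3 and 161 to 1313 with 1 array left out. Of the 25 list genes, SNP against untreated called 1, and 3 with only both groups, 6 with array weights, 3 with a trend, 2 without dim probe sets, 3 and 4 with the replicate block on all arrays and on both groups, 0 with the poly-A covariate, 7 without both treated arrays numbered 3 and 0 to 4 with 1 array left out. cPTIO against untreated called 1, and 0 with only both groups, with a replicate block on them or with the poly-A covariate, 3 with array weights, 7 without both treated arrays numbered 3 and 0 to 3 with 1 array left out. SNP against cPTIO called 2, and 0 with only both groups, 4 with array weights, 1 with a trend, 4 without both treated arrays numbered 3 and 0 to 3 with 1 array left out. Without detection calls, changes among values near the array medians cannot be sized.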

Other observations

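The genes beside the members on the chromosome were read after the other values were known. Of 20 protein-coding neighbours, 2 on each side of each member, the annotation names a probe set for 6. AT4G35750, which lies 2 genes from SEN1, was higher in cPTIO than in untreated seedlings by 1.95 (limma adjusted p = 0.0215), the 1 call among the 6, where 2.32% of all probe sets were called higher, and differed by 1.25 between SNP and untreated seedlings (limma adjusted p = 0.0786). The beta-glucosidase genes BGLU16 and BGLU27, beside DIN2, differed by -0.06 and -0.01 between SNP and untreated seedlings (limma adjusted p = 0.939 and 0.952) and by 0.53 and 0.08 between cPTIO and untreated seedlings (limma adjusted p = 0.294 and 0.554). For cPTIO minus untreated the remaining 3 had -0.56 (AT3G47295, beside ASN1), 0.08 and -0.29 (AT1G10050 and AT1G10090, beside BCAT2), with limma adjusted p of 0.495, 0.749 and 0.267.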
